A study of Homo sapiens with 6 samples.

Results

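The 7 genes that encode P-TEFb and the protein part of its 7SK inhibitor complex were examined in RNA-seq data from LNCaP cells, an established androgen-sensitive prostate cancer cell line. They were chosen by name: *CDK9*, *CCNT1* and *CCNT2* for P-TEFb, and *HEXIM1*, *HEXIM2*, *MEPCE* and *LARP7* for the inhibitor complex. All 7 were found among the 29744 genes in the table of CPM (counts of each gene scaled to the same total in every library). Cells in RPMI-1640 with 10% FBS received CDKI-73, a small molecule inhibitor of CDK9, at 250 nM for 4 h (3 biological replicates), or the vehicle DMSO for the same time (3 biological replicates). Stranded libraries of polyA RNA were sequenced. The comparison asks how acute treatment with CDKI-73 changes the mRNAs of CDK9, of its cyclins and of the proteins that hold it inactive. The paper reports that in enzyme assays the compound acts on CDK7, CDK1 and CDK2 as well, though less strongly than on CDK9. It also reports less phosphorylation of RNA polymerase II at a CDK7 site in treated LNCaP cells. Which kinase lies behind a change in mRNA was not tested.

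P-TEFb consists of the kinase CDK9 and a cyclin, T1 or T2, and phosphorylates RNA polymerase II, DSIF and NELF so that paused polymerase moves into productive elongation. Much of the P-TEFb of a cell is stored in an inactive complex built on the non-coding RNA 7SK. There MEPCE caps the 5′ end of 7SK, LARP7 binds its 3′ end, and a dimer of HEXIM1 or HEXIM2 binds the RNA and blocks CDK9. Stress and several drugs release P-TEFb from this store.

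Read totals, inferred from the step between CPM values, were 46.1 M to 60.9 M reads per sample. All 9 prostate luminal markers had a mean of at least 1 CPM, with a summed level of 7387 to 7783 CPM with DMSO and 6322 to 6685 CPM with CDKI-73. Markers of other cells were low, and 1 gene of each list reached a mean of 1 CPM. Their summed levels with DMSO and then CDKI-73 were 0.51 to 1.1 and 1.1 to 1.31 CPM for 3 basal genes, and 9.47 to 10.2 and 12.8 to 15.0 CPM for 4 stromal genes (*COL1A2* at 0). For 4 immune genes (*CD3E* and *MS4A1* at 0) they were 4.85 to 5.6 and 6.26 to 7.22 CPM, and for 3 endothelial genes 10.04 to 10.14 and 10.02 to 11.9 CPM. Their part in the results was not tested. CDKI-73 replicate 3 stood apart, with a median absolute log2 difference of 0.148 and 0.159 from replicates 1 and 2, against 0.065 between those. Values that moved most with this library are also given without it. A gene passed where its limma p, adjusted over the 13373 genes with a mean of at least 0.5 CPM, was at most 0.05, and was called lower where it also fell at least 2-fold. Log2 fold changes are of CPM + 0.1, which understates those of low genes.

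The mRNAs of 6 of the 7 genes were well below their vehicle level after 4 h with CDKI-73, and *LARP7* stood almost where it was. *MEPCE* and *HEXIM1* kept 12.5% and 13.3% of their mean CPM with DMSO, *HEXIM2* 19.6%, *CCNT1* 24.3%, *CCNT2* 26.7% and *CDK9* 55.7%, while *LARP7* kept 88.6%. On the CPM as deposited, 7 of the 7 genes were lower at the adjusted p, where 48.2% of all tested genes were lower and 24.2% were higher (29.5% and 54.7% after upper quartile scaling, 73.9% and 2.95% after reference gene scaling). By at least 2-fold, 5 of the 7 were called lower, against 22.3% of all tested genes, and for all 7 the highest CDKI-73 value was under the lowest DMSO value, as for 50.0% of the tested genes. The median log2 fold change was −2.19 over the 7 genes and −0.18 over all tested genes. CPM are shares of a library, and scaling to the upper quartile or to the reference genes *GAPDH*, *HPRT1* and *ACTB* moved the median of all genes by 0.48 or −0.40, and a trimmed mean of log ratios or a median of gene ratios by 0.19 or 0.20. The reference genes themselves rose on the CPM as deposited, with log2 fold changes of 0.55, 0.32 and 0.36. Under each of the 4 other scalings tried the 6 genes other than *LARP7* stayed lower at the adjusted p. Of all tested genes 39.7% were lower with the trimmed mean and 39.5% with the median of gene ratios. In these bulk samples, fewer cells of a kind and less RNA per cell cannot be told apart.

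**Figure D1:**
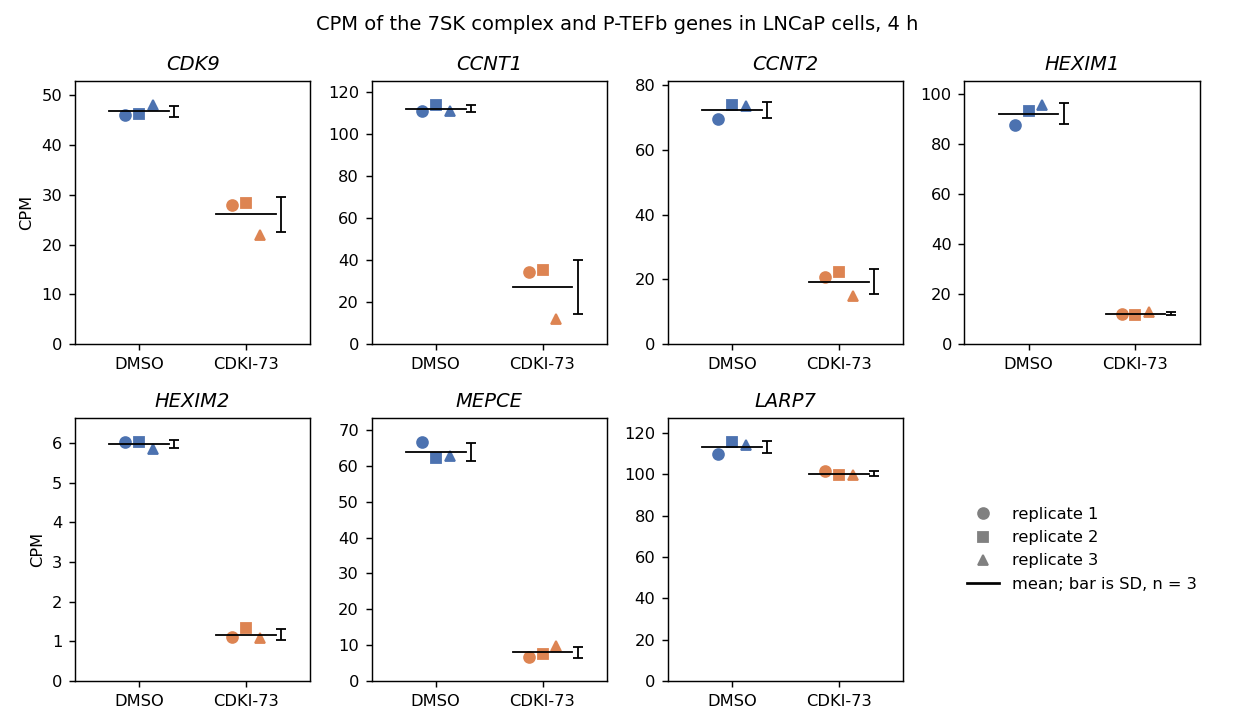
CPM (y axes, from 0) of the 7 genes in the 3 DMSO and 3 CDKI-73 samples, with a symbol per replicate, a line at the mean and a bar of 1 SD. The CDKI-73 points lie below the DMSO points in each panel, by little for *LARP7*, and CDKI-73 replicate 3 lies below the other CDKI-73 samples for *CCNT1* (12.15 CPM).

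*CDK9*, the catalytic subunit, is encoded on chromosome 9 of hg38 (127786034 to 127790792, plus strand, 7 exons). It measured 46.14, 46.20 and 48.06 CPM in DMSO replicates 1 to 3 and 27.92, 28.29 and 21.96 CPM in CDKI-73 replicates 1 to 3. The groups did not overlap, and the log2 fold change was −0.85 (SE 0.096, limma adjusted p = 6.86e-05), short of 2-fold, where SE is the standard error. Among all tested genes 25.5% had a lower log2 fold change. *CDK9* had the log2 fold change nearest 0 of the 3 P-TEFb genes. Its value ranged from −1.26 with reference gene scaling to −0.36 with the upper quartile.

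Both T-type cyclins, which activate CDK9 and tether it to its partners, fell by more. *CCNT1* (chromosome 12, 48688458 to 48716707, minus strand, 9 exons) measured 110.86, 113.83 and 111.11 CPM with DMSO and 34.21, 35.33 and 12.15 CPM with CDKI-73. CDKI-73 replicate 3 lay far below the other CDKI-73 samples, and the SD of that group was 13.1 CPM around a mean of 27.2. The log2 fold change of *CCNT1* was −2.19 (SE 0.36, limma adjusted p = 0.000679), and −1.68 without CDKI-73 replicate 3. *CCNT2* (chromosome 2, 134918822 to 134959342, plus strand, 9 exons) measured 69.60, 73.91 and 73.47 CPM with DMSO and 20.76, 22.28 and 14.97 CPM with CDKI-73. The groups were far apart, with a log2 fold change of −1.92 (SE 0.13, limma adjusted p = 3.37e-06).

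The low value of CDKI-73 replicate 3 was shared unevenly among the genes. Its log2 level minus the mean of the other CDKI-73 samples was −1.51 for *CCNT1*, and 0.17% of the tested genes had a lower difference. It was −0.52 for *CCNT2*, −0.35 for *CDK9* and −0.15 for *HEXIM2*. For *MEPCE* it was 0.43, above 97.2% of the tested genes, and for *HEXIM1* and *LARP7* it was 0.08 and −0.02. Of the CDKI-73 samples this library thus had the lowest values of the 3 P-TEFb genes and the highest of *MEPCE* and *HEXIM1*.

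HEXIM1 and HEXIM2 are paralogous inhibitors that bind 7SK and then cyclin T to silence CDK9. *HEXIM1* is a gene of 1 exon (chromosome 17, 45148475 to 45152099, plus strand). It measured 87.65, 93.50 and 95.81 CPM with DMSO and 12.28, 11.78 and 12.76 CPM with CDKI-73. The CDKI-73 samples lay within 1 CPM of each other, and the SD was 0.49 CPM around a mean of 12.3. Its log2 fold change of −2.90 (SE 0.057, limma adjusted p = 1.97e-08) was lower than that of all but 2.94% of the tested genes. *HEXIM2* follows on the same strand (gene start 45160700 in GENCODE, 8601 bases beyond *HEXIM1*, and MANE Select transcript 45161875 to 45170035, 4 exons). It was the least abundant of the 7, at 6.04, 6.02 and 5.86 CPM with DMSO and 1.1, 1.33 and 1.08 CPM with CDKI-73. The lowest sample held about 50 reads of it, for which counting error alone is 14.1%. Its log2 fold change was −2.26 (SE 0.11, limma adjusted p = 3.76e-07). In GENCODE the lncRNA gene *HEXIM2-AS1* lies across both genes on the other strand and was not used here.

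MEPCE, the methylphosphate capping enzyme that protects 7SK, is encoded on chromosome 7 (100429831 to 100434118, plus strand, 4 exons). *MEPCE* measured 66.79, 62.35 and 62.75 CPM with DMSO and 6.81, 7.48 and 9.66 CPM with CDKI-73. It had the largest fall of the 7, with a log2 fold change of −3.00 (SE 0.12, limma adjusted p = 1.48e-07), below that of all but 2.52% of the tested genes. *ZCWPW1*, which overlaps *MEPCE* on the other strand, reached no more than 3.24 CPM in any sample. An unnamed protein-coding gene of GENCODE overlaps *MEPCE* on the same strand. It was not among the genes with CPM, so its level is not known here.

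LARP7, the La-related protein that holds the 3′ end of 7SK, is encoded on chromosome 4 (112637143 to 112657586, plus strand, 13 exons). *LARP7* measured 109.92, 115.74 and 113.95 CPM with DMSO and 101.78, 99.77 and 99.40 CPM with CDKI-73. The groups did not overlap, but the gap was small. Its log2 fold change of −0.17 (SE 0.042, limma adjusted p = 0.00545) lay near the median of all tested genes, with 50.1% of them lower, and its direction depended on scaling, at 0.02 and 0.03 with a trimmed mean of log ratios and a median of gene ratios (limma adjusted p = 0.712 and 0.566) and 0.32 with the upper quartile (limma adjusted p = 0.00012). With the reference genes it was −0.58 (limma adjusted p = 2.73e-05).

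**Figure D2:**
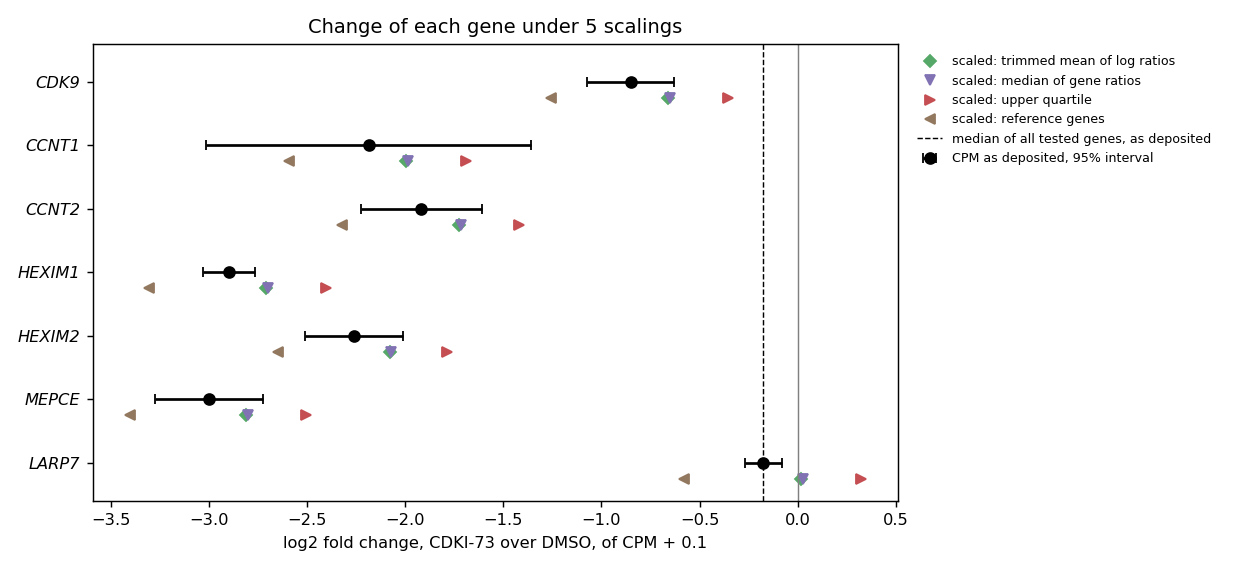
Log2 fold change of CPM + 0.1, CDKI-73 over DMSO, for each gene (black points with 95% intervals from limma) and under 4 other scalings of the samples (coloured symbols). Of the 7, *LARP7* alone crosses 0, between −0.58 and 0.32, and a dashed line marks −0.18, the median over tested genes.

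The 7SK RNA itself is made by RNA polymerase III and is not polyadenylated, so a library of polyA RNA holds little of it. *RN7SK* (chromosome 6, 52995621 to 52995948, plus strand) was listed at 1.17, 1.05 and 0.53 CPM with DMSO and at 1.83, 1.31 and 2.47 CPM with CDKI-73. These values rest on about 28 to 114 reads per sample, and the genome holds many near-identical copies of the gene. Its log2 fold change was 0.98 (SE 0.31, limma adjusted p = 0.0195), and 0.60 with an adjusted p of 0.0868 from limma after reference gene scaling. The first 90 bases of the GENCODE transcript are shown since they hold the hairpin that HEXIM proteins bind. Capitals mark the 3 copies of GATC in them, a sequence known for that contact. Which of the copies take part in it was not examined, and not all need to lie in the hairpin.
RN7SK, chr6:52995621-52995710, plus strand: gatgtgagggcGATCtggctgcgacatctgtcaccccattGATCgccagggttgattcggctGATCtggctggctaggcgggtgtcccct

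Ratios between genes within a sample do not change with scaling, and 8 were compared. The number of *HEXIM1* reads per *CDK9* read went from 1.97 with DMSO to 0.474 with CDKI-73 (geometric means). Its log2 ratio was 0.926, 1.02 and 0.995 in the DMSO samples and −1.19, −1.26 and −0.78 in the CDKI-73 samples. The *MEPCE* to *CDK9* log2 ratio went from 0.45 ± 0.076 (SD, n = 3) to −1.71 ± 0.46 (SD, n = 3), a difference of −2.16, or −2.43 without CDKI-73 replicate 3. For the cyclins, the difference between the groups in the log2 ratio to *CDK9* was −1.34 for *CCNT1* (−0.95 without CDKI-73 replicate 3) and −1.07 for *CCNT2*, and each cyclin went from more reads than *CDK9* to fewer on average (2.39 to 0.946 and 1.55 to 0.736 reads per *CDK9* read). For *CCNT1* 1 library decides this crossing, since the log2 ratio was 0.29 and 0.32 in the other CDKI-73 samples and −0.85 in CDKI-73 replicate 3. Reads also depend on transcript length, which is 6788 and 6920 bases for *CCNT1* and *CCNT2* and 2483 for *CDK9*. Per kb of transcript both cyclins were below *CDK9* with DMSO already (16.5 and 10.5 against 18.8 CPM per kb). The crossing is thus one of reads only.

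*LARP7* had 1.77 reads per *MEPCE* read with DMSO and 12.7 with CDKI-73, a log2 difference of 2.84, and its log2 ratio to *CDK9* differed by 0.68. The log2 ratio of *HEXIM1* to its paralog *HEXIM2* went from 3.95 ± 0.086 to 3.40 ± 0.22 (SD, n = 3). In 7 of the 8 ratios the groups did not overlap, which in a two-sided exact permutation test of 3 samples against 3 gave p = 0.1, the smallest this design allows. The pairs were chosen with earlier results known, and the share of all gene pairs without overlap was not computed. Of single tested genes, 50.0% had every CDKI-73 value below every DMSO value, so the count is not read as particular to these pairs. The *CCNT1* to *CCNT2* ratio overlapped (difference −0.27, exact permutation p = 0.9), and without CDKI-73 replicate 3 the difference was 0.06. Over all 8 ratios the Benjamini-Hochberg adjustment cannot take any below 0.1, so no ratio could pass 0.05 in this test.

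**Figure D3:**
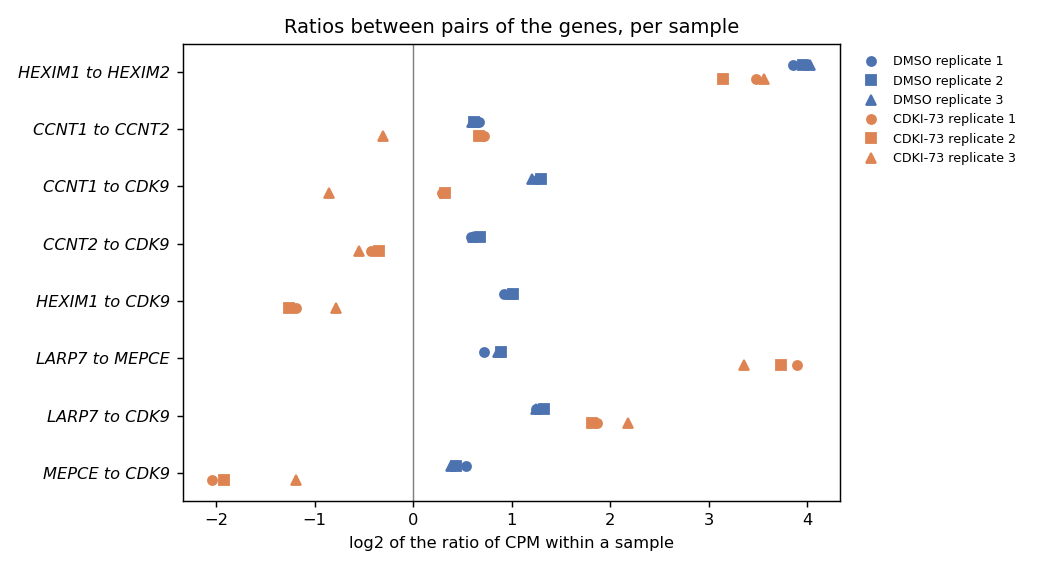
Log2 of the ratio of CPM between the members of each pair, with 1 point per sample (blue, DMSO; orange, CDKI-73; symbols, replicates). The groups are apart in 7 of the 8 pairs, and *CCNT1* to *CCNT2* overlaps, with CDKI-73 replicate 3 alone at −0.30. How often other gene pairs separate was not computed.

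Levels were compared between genes as CPM per kb of the MANE Select transcript, without knowledge of the isoforms used. With DMSO the order was *LARP7* (53.7 ± 1.41, SD, n = 3), *HEXIM1* (25.5 ± 1.16), *MEPCE* (22.7 ± 0.87), *CDK9* (18.8 ± 0.44), *CCNT1* (16.5 ± 0.24), *CCNT2* (10.5 ± 0.34) and *HEXIM2* (4.16 ± 0.069 CPM per kb), with each neighbour further apart than the larger SD. With CDKI-73 *LARP7* stood at 47.6 ± 0.61 CPM per kb and *CDK9* at 10.5 ± 1.43. Below them *CCNT1* (4.01 ± 1.93), *HEXIM1* (3.39 ± 0.14), *MEPCE* (2.83 ± 0.53) and *CCNT2* (2.79 ± 0.56 CPM per kb) were each within the larger SD of a neighbour, and *HEXIM2* was last at 0.815 ± 0.097. *HEXIM1* and *MEPCE*, both above *CDK9* per kb with DMSO, were thus below it with CDKI-73.

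Several of the 7 genes are short or have few exons. *HEXIM1*, *MEPCE* and *CDK9* span 3625, 4288 and 4759 bases, with shorter spans in 5.7%, 7.6% and 8.9% of the 11068 tested genes with a MANE Select model (median 28756 bases). *CCNT1* and *CCNT2*, at 28250 and 40521 bases, and *LARP7*, at 20444, are of middle size. Over all these genes the change varied with the number of exons. Genes of 1 exon, such as *HEXIM1*, had a median log2 fold change of −1.61, and 64.4% of the 180 were called lower. Genes of 2 to 4 exons, such as *MEPCE* and *HEXIM2*, had a median of −0.59 (40.1% of 1916 called lower). At 5 to 9 exons, as in *CDK9*, *CCNT1* and *CCNT2*, the median was −0.14 (22.0% of 3548), and at 10 or more, as in *LARP7*, −0.13 (16.4% of 5424). By gene span the medians ran the other way, from 0.06 under 5000 bases, the class of *HEXIM1*, *MEPCE* and *CDK9*, through −0.07, −0.16 and −0.27 to −0.23 from 100000 bases. The share called lower was 24.3% in the shortest class, 24.7%, 24.8% and 23.1% in the next, and 18.2% in the longest.

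**Figure D4:**
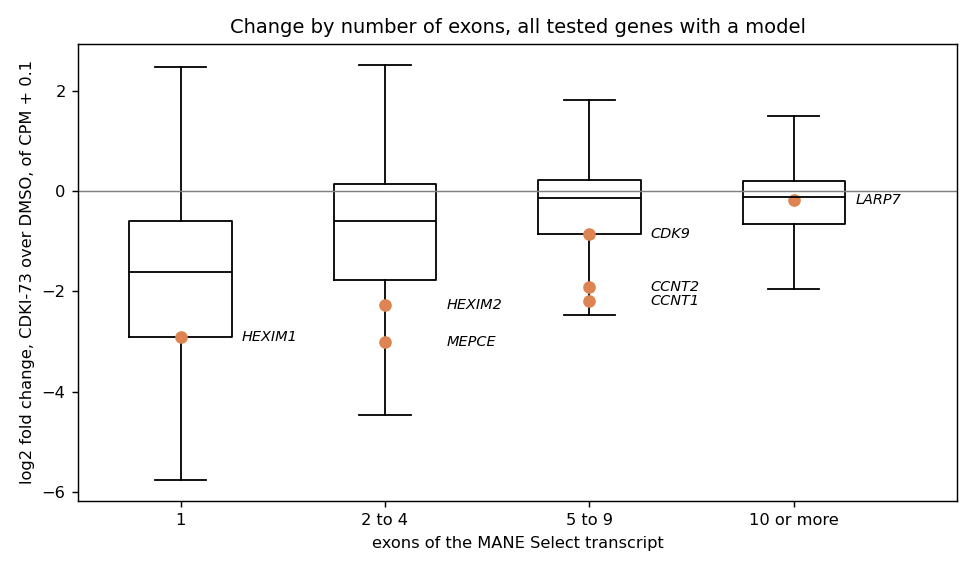
Log2 fold change of CPM + 0.1, CDKI-73 over DMSO (y axis), of tested genes by the number of exons of the MANE Select transcript (boxes, quartiles and median; whiskers, 1.5 times the interquartile range; points beyond are not drawn), with the 7 genes in orange. The median is −1.61 at 1 exon and −0.13 at 10 or more, and all 7 genes lie below the median of their class, *LARP7* by the least.

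The pentamer ATTTA, the core of the AU-rich elements that mark many short-lived mRNAs, was counted in the 3′ UTR of the same transcripts. The long 3′ UTRs of *CCNT1* (4575 bases) and *CCNT2* (4694 bases) hold 15 and 17 copies, more than 92.6% and 94.4% of the genes with a model. These 3′ UTRs are also longer than those of 89.6% and 90.3% of the same genes, and copies were not set against length. That of *HEXIM1* (1829 bases) holds 7 and that of *CDK9* (1249 bases) 2, the median count. *LARP7* holds 1, and *MEPCE* and *HEXIM2* hold 0. Of all genes without a copy 13.3% were called lower, of those with 1 or 2 copies 22.5%, with 3 to 5 copies 30.3% and with 6 or more 27.9%. *MEPCE*, with the largest fall of the 7, thus belongs to the class with the smallest share.

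The 250 bases before the MANE Select start were taken from RefSeq (GRCh38.p14) for all 7 genes and searched on both strands for GGGCGG (the GC box), CCAAT (the CCAAT box), GCGCATGC (a core of the NRF1 site), CACGTG (the E box) and TGACGTCA (the full CRE), and along the transcribed direction of the last 50 bases for TATAA. These motifs were picked after the sequences had been seen. GCGCATGC stood before *HEXIM1*, *MEPCE* and *CCNT2*, against 2.6% of 34943 promoter windows, which are not limited to tested genes. The GC content before these genes was 62.4%, 66.0% and 69.6%, against a median of 58.0% over the windows. Among the 7 genes it ranged from 55.2% (*HEXIM2*) to 82.0% (*CDK9*), and the shares were not matched for it. TATAA was found for *HEXIM1* alone, 29 bases before the start, against 4.74% of windows, and TGACGTCA for *LARP7* alone, against 1.63%. GGGCGG was present for *CDK9*, *CCNT1*, *CCNT2*, *HEXIM1* and *LARP7* (42.55% of windows) and the CCAAT box for *CCNT1*, *CCNT2*, *HEXIM1*, *HEXIM2* and *LARP7* (32.04%), and CACGTG for *CCNT1* alone (6.32%). No GCGCATGC was found for *LARP7*, nor for *CDK9*, *CCNT1* and *HEXIM2*, whose log2 fold changes were −0.85, −2.19 and −2.26. A relation of the motif to the changes was not tested. The 4 promoters below are shown to set the 3 genes that share GCGCATGC beside *LARP7*, with every match in capitals and each read along the transcribed strand. In *CCNT2* both orientations of GCGCATGC overlap in 1 run.
HEXIM1, chr17:45148225-45148474, plus strand: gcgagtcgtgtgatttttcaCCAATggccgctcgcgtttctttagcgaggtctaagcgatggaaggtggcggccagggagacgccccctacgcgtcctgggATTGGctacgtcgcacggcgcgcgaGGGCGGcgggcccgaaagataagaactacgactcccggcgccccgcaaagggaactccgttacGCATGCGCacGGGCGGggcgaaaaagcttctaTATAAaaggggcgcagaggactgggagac
MEPCE, chr7:100429581-100429830, plus strand: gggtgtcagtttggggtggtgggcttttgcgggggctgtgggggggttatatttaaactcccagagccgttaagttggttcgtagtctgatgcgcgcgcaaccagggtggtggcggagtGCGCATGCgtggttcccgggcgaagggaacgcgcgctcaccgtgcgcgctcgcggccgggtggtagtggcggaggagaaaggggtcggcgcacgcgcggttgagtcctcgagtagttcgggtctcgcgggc
CCNT2, chr2:134918572-134918821, plus strand: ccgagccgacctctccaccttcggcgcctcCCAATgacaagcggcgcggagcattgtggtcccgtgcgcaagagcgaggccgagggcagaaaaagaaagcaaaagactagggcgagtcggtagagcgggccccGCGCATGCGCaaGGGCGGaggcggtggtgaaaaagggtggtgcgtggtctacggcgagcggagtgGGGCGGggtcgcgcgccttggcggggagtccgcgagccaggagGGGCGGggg
LARP7, chr4:112636893-112637142, plus strand: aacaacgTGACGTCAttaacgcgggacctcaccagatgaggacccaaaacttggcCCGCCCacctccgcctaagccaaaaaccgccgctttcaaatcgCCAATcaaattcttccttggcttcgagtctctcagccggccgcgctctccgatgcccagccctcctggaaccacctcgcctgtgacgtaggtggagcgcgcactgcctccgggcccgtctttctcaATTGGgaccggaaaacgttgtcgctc

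Genes around P-TEFb were grouped in lists written from general knowledge, and their counts are set beside the shares of all tested genes, 48.2% lower and 24.2% higher as deposited, 29.5% and 54.7% with the upper quartile, and 73.9% and 2.95% with the reference genes. The super elongation complex, which carries active P-TEFb to genes, had 9 of 10 genes lower at the adjusted p (48.2% of all genes) and 0 higher (24.2%), with a median log2 fold change of −0.69, against −0.18 for all tested genes. Its scaffold gene *AFF1* went from 80.5 ± 4.07 to 29.95 ± 1.98 CPM (SD, n = 3), with a log2 fold change of −1.42 (limma adjusted p = 2.74e-07), and was the one gene of the 10 called lower by 2-fold (22.3% of all genes), against 5 of 10 after reference gene scaling (32.7%). *EAF2* and *ELL2*, elongation factors of the complex, had log2 fold changes of −0.98 and −0.92. With the trimmed mean and the median of ratios the count higher was also 0 (37.8% and 38.3% of all genes). The count lower was then 8 and 7 (39.7% and 39.5%). After upper quartile scaling 2 were higher (54.7% of all genes) and 5 were lower (29.5%).

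Of 9 genes of the other transcriptional CDK complexes 7 were lower (48.2% of all genes) and 1 was higher (24.2%), with a median of −0.41. *CDK7*, the TFIIH kinase that also activates CDK9, went from 52.9 ± 1.46 to 11.4 ± 1.37 CPM (SD, n = 3), or on the log2 scale by −2.21 (limma adjusted p = 1.46e-07). *CDK13*, an elongation kinase, and *CDK8*, the Mediator kinase, had log2 fold changes of −1.77 and −1.63. The partner cyclin genes, given for their pairing with these kinases, had log2 fold changes of 0.02 (*CCNH*, with CDK7), 0.15 (*CCNC*, with CDK8) and −0.41 (*CCNK*, with CDK13), each nearer 0 than its kinase, while *CCNT1* and *CCNT2* lay further from 0 than *CDK9*. *CCNC* alone passed upwards, and after reference gene scaling it was lower. Upper quartile scaling left 4 lower (29.5% of all genes) and 3 higher (54.7%), and reference gene scaling 9 lower (73.9%).

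Of 10 factors that free P-TEFb from 7SK or recruit it 4 were lower, a share near the 48.2% of all genes, and 1 was higher (24.2% of all genes), with a median of −0.07. *JMJD6*, a factor that helps to release P-TEFb, went from 22.0 ± 0.42 to 10.2 ± 1.70 CPM (SD, n = 3), or on the log2 scale by −1.11 (limma adjusted p = 3.88e-05). *PPM1A*, a phosphatase that acts on the CDK9 activation loop, and *SRSF2*, a splicing factor that binds 7SK, had log2 fold changes of −0.71 and −0.70. With the upper quartile 3 were lower and 6 higher (29.5% and 54.7% of all genes), and with the reference genes 9 were lower and 0 higher (73.9% and 2.95%).

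In the list of P-TEFb substrates and pausing factors, 1 of 7 was lower and 3 were higher on the CPM as deposited (48.2% and 24.2% of all genes), with a median of 0.03. *NELFA* was the lower one, from 31.2 ± 1.12 to 12.2 ± 0.29 CPM (SD, n = 3), or on the log2 scale by −1.35 (limma adjusted p = 1.96e-07). *SUPT5H*, the large DSIF subunit, and *NELFE* measured 0.34 each, which reference gene scaling turned to −0.07 for both, with 5 of the 7 then lower, near the 73.9% of all genes, and 0 higher. After upper quartile scaling 1 was lower and 6 were higher (29.5% and 54.7% of all genes). The hnRNP genes whose proteins take up free 7SK made a list of 7 together with *RN7SK* itself. Of these 1 was lower and 4, *RN7SK* with its few reads among them, were higher, against 48.2% and 24.2% of all genes (median 0.14). *SYNCRIP* was lower at −0.53, and *HNRNPA1* measured 0.27, or −0.14 after reference gene scaling, when 5 of the 7 were lower, near the 73.9% of all genes, and 0 higher. Upper quartile scaling gave 0 lower and 6 higher (29.5% and 54.7% of all genes).

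Chaperones and modifying enzymes of CDK9 and cyclin T1 had 4 of 11 genes lower and 6 higher, against 48.2% and 24.2% of all genes (median 0.23), and none was higher after reference gene scaling, with 6 lower (73.9% of all genes). With upper quartile scaling 2 were lower and 7 higher (29.5% and 54.7% of all genes). *EP300*, an acetyltransferase of cyclin T1, went from 77.4 ± 13.0 to 19.5 ± 3.76 CPM (SD, n = 3), or on the log2 scale by −1.99 (limma adjusted p = 8.55e-06), and *NCOR1*, a corepressor, had −0.68. Of the 6 that were higher on the CPM as deposited, *CDC37*, a kinase co-chaperone picked after its value was seen, had the largest log2 fold change at 0.52, or 0.12 after reference gene scaling. In the La-related family of *LARP7*, 3 of 6 relatives were lower and 1 was higher, shares near the 48.2% and 24.2% of all genes (median −0.42). *LARP4B* and *LARP1*, cytoplasmic regulators of mRNA translation and stability, had log2 fold changes of −1.74 and −1.01, and *LARP4* had −0.71, all below that of *LARP7*. Upper quartile scaling left 3 lower and 3 higher (29.5% and 54.7% of all genes), and with the reference genes 6 of 6 were lower (73.9%).

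**Figure D5:**
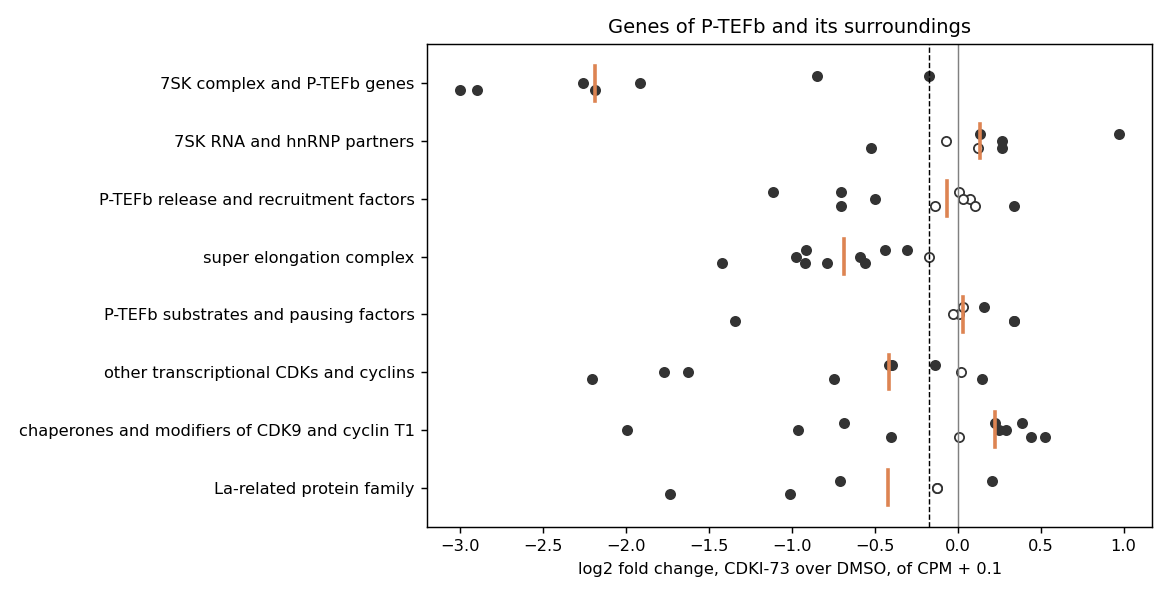
Log2 fold change of CPM + 0.1, CDKI-73 over DMSO, of every tested gene in 8 lists (filled where the limma adjusted p was at most 0.05, otherwise open), with an orange bar at the list median and a dashed line at the median of all genes (−0.18). The 7SK complex and P-TEFb genes have a median of −2.19 and the super elongation complex one of −0.69.

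The genes with the profile most like that of *MEPCE*, by root mean square distance of centred log2 values over the 6 samples, were *GJC1* (0.075), *CCDC41-AS1* (0.080) and *PRR15L* (0.086), with log2 fold changes of −2.91, −3.00 and −3.14. For *LARP7*, the gene with the smallest change, they were *HIATL1* (0.0096), *BLMH* (0.011) and *ZNF259* (0.017), at −0.18, −0.19 and −0.16. These distances describe 6 samples in 2 groups and are mostly set by the difference between the groups.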

How the data were processed

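LNCaP polyA RNA libraries (3 with CDKI-73, 3 with DMSO) were compared. Per the paper's methods and the submitters' processing notes, the authors aligned stranded single-end reads with STAR (hg38), summed them by gene and tested TMM normalized counts in edgeR 3.3 under R 3.2.3. Which strand and annotation were counted is not given in the sources used here. What the authors deposited is CPM rounded to 0.01, whose column totals (999999.2 to 1000007.84) show no TMM factor. Samples were grouped by treatment label, because DMSO titles name CDKI-73 too.

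Log2(CPM + 0.1) of the 13373 genes with a mean of at least 0.5 CPM was fitted with limma 3.58.1 in R 4.3.3 (eBayes with trend, no block or covariate) and adjusted by the Benjamini-Hochberg method. The fit was tested on simulated data in which few genes changed, as many upwards as downwards. That setting is unlike these data, so the test checks the code and not the choice of scaling. The 7 genes, the gene lists and the tests were chosen with earlier results of these data known. Named genes were the 7, in each list up to 3 genes that passed, by size of change, the 3 reference genes, *RN7SK* and the 3 genes nearest in profile to the genes with the largest and smallest change. Others are named for role or position, and some genes that the rule names are not reported here. Gene models are from GENCODE release 44 on hg38, and promoters from RefSeq. Read totals were inferred as the numbers at which 99.96% to 100% of values up to 2000 CPM lay within rounding of a whole read, against 46.1% to 60.9% for arbitrary values. Alternatives were other pseudocounts (0.01, 1), filters, scalings, limma settings, a replicate block and each sample left out. Counting errors cover counting only. The p-values measure the spread between replicates said to be biological.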

Additional observations from a re-analysis of the deposited data

How the results depend on the processing

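The 6 genes *CDK9*, *CCNT1*, *CCNT2*, *HEXIM1*, *HEXIM2* and *MEPCE* were lower at the adjusted p of limma under all 17 alternatives. *LARP7* was lower in 14 of them and turned to 0.0176 with the trimmed mean of log ratios, 0.0275 with the median of gene ratios and 0.32 with the upper quartile, since these scalings move every gene upwards. Of the 7 genes, the number called lower by 2-fold stayed at 5, and was 6 with the reference genes, where *CDK9* had −1.26. The share of all tested genes called lower by 2-fold ranged from 14.0% (upper quartile) to 32.7% (reference genes). The difference of the *CCNT1* to *CCNT2* log2 ratio ranged from −0.448 to 0.0624 when each sample was left out, the latter without CDKI-73 replicate 3. Same-numbered samples did not deviate together (correlations of −0.295, 0.106 and −0.227 over the tested genes, and the highest of any pair, 0.339, was between DMSO replicate 1 and CDKI-73 replicate 3). With a replicate block 7 of the 7 genes remained lower (46.1% of all tested genes), 5 by 2-fold (22.3%), and *LARP7* had an adjusted p of 0.0301 in limma. The number of the 7 that were lower at the adjusted p was 6 with the trimmed mean, the median of ratios and the upper quartile. Of all tested genes 39.7%, 39.5% and 29.5% were then lower. In the other alternatives it was 7, where 31.7% (no filter) to 73.9% (reference genes) of all tested genes were lower. Of the ratios, *CCNT1* to *CCNT2* alone changed sign. Upper quartile scaling called 1867 genes lower by 2-fold in the whole table, against 2986. The exact permutation test of the ratios cannot go below 0.1 with 3 samples a group, and depth limits *HEXIM2* and *RN7SK* most.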

Other observations

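The genes beside the 7 on the chromosome, picked for their position, gave mixed values. *KANSL2*, a subunit gene of the NSL acetyltransferase complex that lies 6220 bases from *CCNT1* on the same strand, went from a mean of 41.8 to 6.15 CPM, a log2 fold change of −2.75 (limma adjusted p = 8.08e-08). *FPGS*, 3805 bases beyond *CDK9* on the same strand, measured 0.21 (limma adjusted p = 0.0355), and *ACBD4*, 4294 bases before *HEXIM1* on the same strand, 0.16 (limma adjusted p = 0.0917). *PPP1R35*, 1156 bases from *MEPCE* on the other strand, had −0.51, and *ZCWPW1*, which overlaps *MEPCE*, 0.33, from 2.38 to 3.02 CPM. *CCNT2-AS1*, on the other strand of *CCNT2*, stayed near 1 CPM with −0.23 (limma adjusted p = 0.249). All these values are on the CPM as deposited. The miRNA genes inside *LARP7* (*MIR302A*, *MIR302B*, *MIR302C*, *MIR302D* and *MIR367*) were listed at 0 in all samples. Libraries of polyA RNA are not suited to measuring miRNAs, so whether these genes are silent is not known here.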
